A study of Mus musculus with 6 samples.

Results

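The nuclear genes of respiratory complex I were followed in primary mouse pancreatic acinar cells labelled as lacking the estrogen-related receptor gamma (Esrrg). Members were all symbols of the count tables that begin with Nduf followed by a, b, c, s or v and a digit, together with Ndufab1, leaving out assembly factors and pseudogenes. They came to 38 genes among 23282 rows, and all 38 passed the filter on low counts. The tested libraries were 3 of a conditional knock-out (cKO), labelled with the genotype ERRgamma -/-, and they were set against 3 control libraries labelled wild type. Strain (C57BL/6J) and culture were common to all 6, the medium being Waymouth's with added FBS, Penicillin-Streptomycin, trypsin inhibitor and recombinant human EGF, a growth factor. The sources used here give no Cre driver, deleted region, culture time, age or sex. Nothing in the labels ties a numbered library to an animal of its own, so each p-value reflects only the variation among the libraries at hand, possibly technical.

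Complex I (NADH:ubiquinone oxidoreductase) is the entry point of the mitochondrial electron transport chain. A peripheral arm takes electrons from NADH in the N module and hands them to ubiquinone in the Q module, and a membrane arm, with a proximal and a distal part, pumps protons. Estrogen-related receptors are known as activators of many nuclear genes of oxidative phosphorylation. The subunits encoded by the mitochondrial genome were not analysed here. Ndufb1, Ndufb4b and Ndufb4c have no row of that name in the tables used. Ndufa4 and its paralog Ndufa4l2 match the naming rule, but Ndufa4 is now known as a subunit of complex IV (cytochrome c oxidase). They are kept in the counts and described apart.

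The cKO libraries held 15.2 to 17.0 M counts each and the control libraries 23.0 to 25.2 M (M, mega). Digestive enzyme genes took 21.6% to 55.4% of cKO counts and 85.1% to 86.6% of control counts, so the remaining genes shared very different parts of each library. The list of 38 genes used for this share also holds secreted or granule products that are not enzymes, namely Clps, Spink1, Sycn, Zg16 and Gp2. TMM scaling, which centres most genes on a ratio without change, gave effective sizes of 33.2 M to 60.0 M in cKO and 7.52 M to 8.49 M in control. cKO replicate 2 stood apart, with an enzyme share of 55.4% against 21.6% and 28.5% in the other cKO libraries. Acinar markers were detected in every library. All 6 listed acinar genes fell on the TMM scale, and their summed level was 4030 to 24735 CPM in cKO and 141210 to 164490 CPM in control. Nearly all of this sum was Cpa1 and Cela1, which are also on the enzyme list. The others, Ptf1a, Rbpjl, Bhlha15 and Nr5a2, had log2 fold changes of -2.25 ± 0.56, -3.98 ± 0.77, -3.33 ± 0.49 and -2.03 ± 0.40 (SE). Of 8 fibroblast markers 7 rose (3568 to 5095 CPM in cKO and 723 to 817 CPM in control, summed), and of 8 macrophage markers all 8 rose (214 to 443 CPM in cKO and 70.6 to 89.7 CPM in control). Of 6 endothelial markers 2 fell and 1 rose (14.5 to 22.0 CPM in cKO and 28.4 to 31.9 CPM in control), of 5 duct markers tested 3 fell and 2 rose (66.3 to 78.0 CPM in cKO and 157 to 191 CPM in control), and of 7 islet markers 1 fell (409 to 843 CPM in cKO and 589 to 948 CPM in control). A fall or rise of a marker here is an edgeR call at an adjusted p under 0.05 on the TMM scale. By this measure 20.7% of all 13132 tested genes were lower and 24.0% higher. No listed marker was at 0 in every library of a group. Their part in the complex I values was not tested, and in such bulk samples fewer cells of a type and less RNA per cell cannot be told apart.

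Esrrg was counted 0, 9 and 1 times in cKO replicates 1, 2 and 3 and 0 times in each control library. A 3' tag can lie outside the deleted part, so these counts do not check the genotype labels. Esrrb had 0 counts in all libraries, Esrra had a log2 fold change of 0.13 ± 0.17 (SE; edgeR adjusted p = 0.550), and Ppargc1a, which encodes an ERR coactivator, had 0, 9 and 11 counts in cKO and 7, 26 and 12 in control (adjusted p = 0.00427, lower in cKO).

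Relative to the bulk of genes, complex I subunits fell together in the cKO. Of the 38 genes, 37 passed an adjusted p of 0.05 in edgeR as lower and 0 as higher, where 20.7% of all 13132 tested genes were called lower and 24.0% higher. No member was higher at an unadjusted p under 0.05 either. The median log2 fold change was -1.08 over the members and 0.10 over all tested genes, and 24 members were called and at least 2-fold lower, where 13.4% of tested genes were. On the scale of counts per M of the effective library size (CPM), every cKO library lay below every control library for all 38 genes, as was so for 25.4% of tested genes. Without cKO replicate 2, 37 members were again called lower, with a median of -1.14, where 20.2% of genes were called lower.

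As a percent of the library the 38 genes were higher in the cKO. Their summed counts made up 0.271%, 0.182% and 0.272% of cKO replicates 1, 2 and 3 (95% Clopper-Pearson intervals 0.269 to 0.274, 0.180 to 0.184 and 0.269 to 0.274). In control replicates 1, 2 and 3 they made up 0.0617%, 0.0619% and 0.0641% (0.0607 to 0.0627, 0.0609 to 0.0629 and 0.0631 to 0.0651). The means were 0.242% ± 0.0514 in cKO and 0.0626% ± 0.00134 in control (SD, n = 3 each), a ratio of 3.86, and every cKO library lay above every control library. The same held for each of the 38 genes singly, as for 96.9% of tested genes. All 38 genes had a higher mean percent in cKO, by 1.64-fold to 6.52-fold with a median of 4.45-fold, beside 98.9% of all tested genes that were higher by this measure. In the edgeR fit on library totals, 37 members were called higher, where 96.4% of tested genes were, and 0 lower, where 0.404% were. Ndufa1 was the member not called on this scale (log2 fold change 0.72; adjusted p = 0.0580).

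Between these scales stands the part of the library that is not digestive enzyme, Rn45s or Casp9. Of those counts the complex I genes made up 0.382%, 0.496% and 0.407% in cKO replicates 1, 2 and 3, against 0.711%, 0.668% and 0.650% in control replicates 1, 2 and 3. The groups did not overlap, and the ratio of the means was 0.633, or 0.584 without cKO replicate 2. Rn45s and Casp9 together took a larger part of the counts outside the enzymes in every control library than in every cKO library. The size of the fall on this denominator thus depends in part on leaving them out. No fit was made with the enzymes alone left out. Fitted on this denominator, 20 of 38 members were called lower and 0 higher, where 9.94% of tested genes were called lower and 45.4% higher, with a median log2 fold change of -0.47 beside 0.71 for all tested genes.

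**Figure D1:**
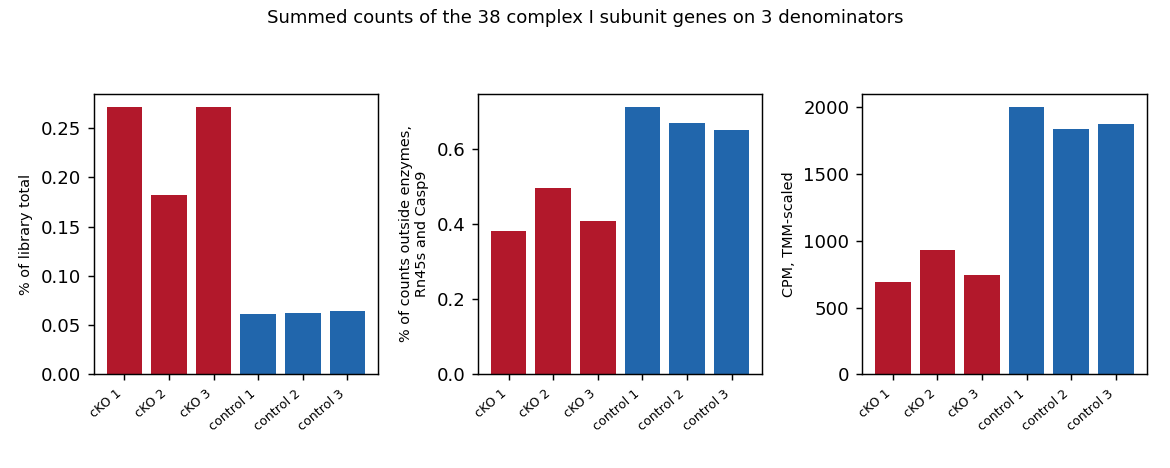
Summed counts of the 38 complex I subunit genes in each library, as percent of the library total (left), as percent of counts outside digestive enzymes, Rn45s and Casp9 (middle) and as TMM-scaled CPM (right), with cKO libraries in red and control libraries in blue. The cKO bars are higher on the left and lower in the middle and on the right, where the means were 789 ± 127 CPM in cKO and 1905 ± 87.7 CPM in control (SD, n = 3 each).

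Within the cKO group the libraries differed in the size of the fall. On the TMM scale cKO replicate 2 had the highest level of the cKO libraries for 35 of the 38 genes, and replicate 1 for the other 3. The summed level was 693, 933 and 741 CPM in cKO replicates 1, 2 and 3, against 2004, 1837 and 1874 CPM in control replicates 1, 2 and 3. The enzyme share was also highest in cKO replicate 2. Whether these values are related was not tested.

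**Figure D2:**
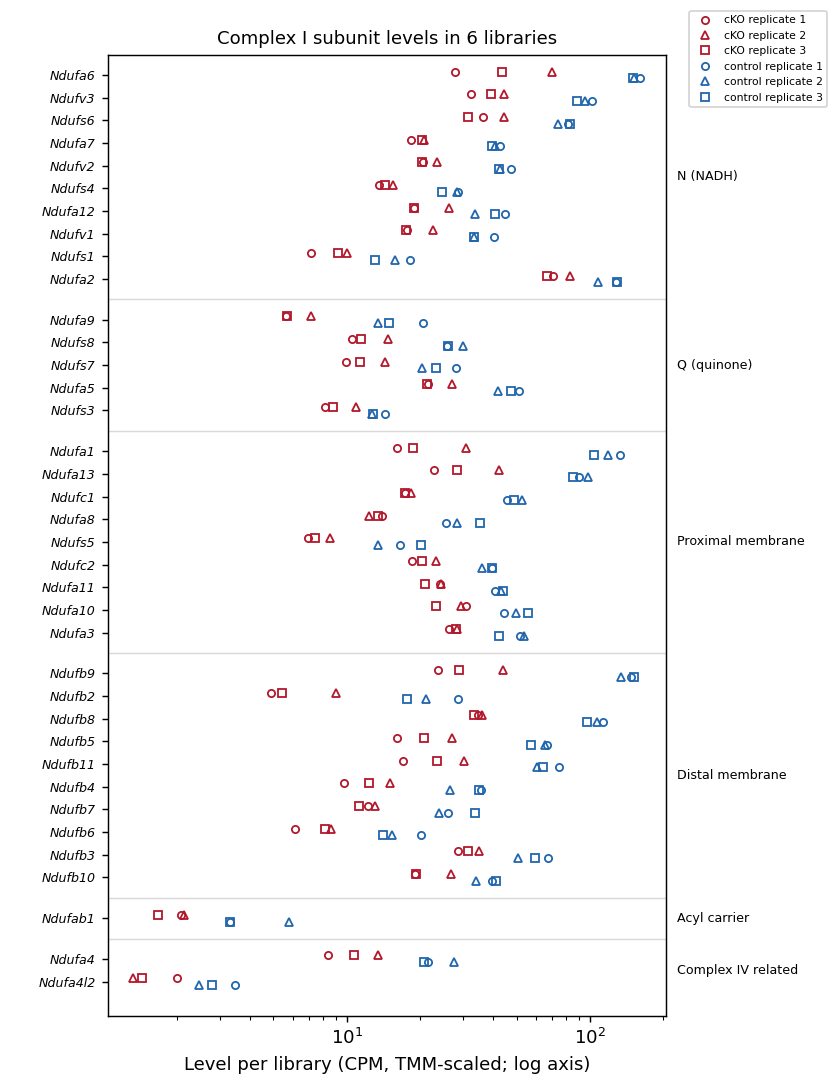
Levels of complex I subunit genes in each library, as TMM-scaled CPM on a log axis, grouped by module, with cKO in red and control in blue and a marker shape for each replicate number. For every gene drawn the cKO symbols lie left of the control symbols, and the triangle of cKO replicate 2 is the rightmost red symbol for most of them.

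The upstream sequences of the subunit genes were searched for the sites of 3 kinds of regulator. RefSeq (GRCm38.p6) gave windows from 250 bases before to 50 bases after the start for 33 of the 38 genes. These genes had 35 windows in all. A member gene counted if any of its windows held the site, whereas the percent over all windows counts each window singly. The percents of genes and of windows thus differ in unit. The estrogen-related receptor element TNAAGGTCA was looked for on both strands. It was found in 1 of the 33 genes, Ndufb4 (3.03%), and in 1.28% of all 32851 windows. Its shorter core AAGGTCA, which every TNAAGGTCA also holds, was found in 3 genes, Ndufb2, Ndufb4 and Ndufs5 (9.09%), and in 4.72% of all windows. The palindromic NRF1 consensus site stood in Ndufa11 alone of the 33 (3.03%, beside 0.971% of all windows). The ETS core CCGGAAG stood in Ndufb6, Ndufb7, Ndufs3 and Ndufs8 (12.1%, beside 8.86% of all windows). The windows of the 3 genes that hold the receptor core are printed below, together with those of Ndufa1 and Ndufs3, the genes of the lowest and the highest fold change. Only the 250 bases before the RefSeq start are given, 5′ to 3′ in the direction of the gene, and capitals mark matches to these motifs on either strand.
Ndufb4, chr16:37654369-37654618, minus strand: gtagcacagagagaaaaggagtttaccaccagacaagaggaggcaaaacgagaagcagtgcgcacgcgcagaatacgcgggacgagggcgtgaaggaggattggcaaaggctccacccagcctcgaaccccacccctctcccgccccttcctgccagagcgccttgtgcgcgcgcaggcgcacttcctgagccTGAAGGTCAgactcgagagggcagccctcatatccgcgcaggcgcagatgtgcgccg
Ndufb2, chr6:39592315-39592564, plus strand: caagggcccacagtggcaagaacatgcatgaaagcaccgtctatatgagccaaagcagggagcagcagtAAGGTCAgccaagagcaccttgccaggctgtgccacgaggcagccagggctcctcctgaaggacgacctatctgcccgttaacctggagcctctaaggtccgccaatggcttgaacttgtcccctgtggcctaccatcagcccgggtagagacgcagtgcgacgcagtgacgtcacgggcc
Ndufs5, chr4:123718187-123718436, minus strand: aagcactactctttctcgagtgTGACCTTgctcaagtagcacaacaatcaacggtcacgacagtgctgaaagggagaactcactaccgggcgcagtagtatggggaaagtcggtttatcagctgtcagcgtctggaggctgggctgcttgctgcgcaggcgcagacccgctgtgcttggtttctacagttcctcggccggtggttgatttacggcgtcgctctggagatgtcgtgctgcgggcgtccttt
Ndufa1, chrX:37191239-37191488, minus strand: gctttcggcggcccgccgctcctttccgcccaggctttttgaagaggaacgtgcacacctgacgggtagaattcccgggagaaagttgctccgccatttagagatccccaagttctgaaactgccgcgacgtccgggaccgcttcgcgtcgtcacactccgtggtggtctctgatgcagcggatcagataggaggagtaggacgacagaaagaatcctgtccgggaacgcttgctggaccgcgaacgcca
Ndufs3, chr2:90904722-90904971, minus strand: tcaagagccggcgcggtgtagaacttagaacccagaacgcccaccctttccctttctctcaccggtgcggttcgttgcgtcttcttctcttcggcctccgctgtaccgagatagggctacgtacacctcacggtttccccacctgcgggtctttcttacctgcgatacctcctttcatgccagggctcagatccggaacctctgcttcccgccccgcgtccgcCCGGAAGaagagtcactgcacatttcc
The Ndufb4 match lay 57 bases before the RefSeq start, the Ndufb2 match 181 bases and the Ndufs5 match, on the other strand, 228 bases before it. The capitals in Ndufs3 are an ETS core 27 bases before the RefSeq start, and Ndufa1 has none. The GENCODE M21 annotation puts the 5′ ends of Ndufb4 (37654453), Ndufs5 (123718202) and Ndufs3 (90904827) inside the printed windows. Part of each of these windows is thus within the gene by that annotation, the Ndufb4 and Ndufs3 matches included. The 3 genes with the receptor core had log2 fold changes of -1.81 ± 0.26 (Ndufb2), -1.39 ± 0.19 (Ndufb4) and -1.13 ± 0.20 (Ndufs5) on the TMM scale (SE; edgeR adjusted p = 6.61e-05, 4.44e-05 and 3.80e-04). A letter match is a description of the sequence and not a bound site.

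The N module, which holds the flavin and the first iron-sulfur clusters, had 10 of 10 genes called lower, with a median log2 fold change of -0.97. Ndufa6, an accessory LYR-motif protein at the junction with the Q module, changed most in it. It had 28.0, 69.8 and 43.7 CPM in cKO replicates 1, 2 and 3, against 162, 152 and 150 CPM in control replicates 1, 2 and 3. The control libraries stood close together and the cKO libraries spread over more than 2-fold, with replicate 2 highest. This made a log2 fold change of -1.71 ± 0.27 (SE; edgeR adjusted p = 2.38e-04), and -2.09 without cKO replicate 2. Ndufa2, an accessory subunit with a thioredoxin-like fold, changed least in the module. It had 70.6, 83.1 and 66.8 CPM in cKO replicates 1, 2 and 3, against 129, 108 and 130 CPM in control, a log2 fold change of -0.74 ± 0.16 (adjusted p = 0.00162). Ndufa2 took 0.0276%, 0.0162% and 0.0245% of the cKO libraries, against 0.00396%, 0.00365% and 0.00445% of the control libraries. The core subunits Ndufv1, which binds NADH and flavin, Ndufv2 and Ndufs1, which carry iron-sulfur clusters, had log2 fold changes of -0.89 ± 0.17, -1.04 ± 0.15 and -0.83 ± 0.21 (adjusted p = 5.68e-04, 6.60e-05 and 0.00415). The other 5 genes of the module, Ndufv3, Ndufs4, Ndufs6, Ndufa7 and Ndufa12, had fold changes between -1.30 and -0.89.

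The Q module, where ubiquinone is reduced, had 6 of 6 genes called lower, with a median of -1.01. Ndufs3, a core subunit (chromosome 2, 90894634 to 90904827, minus strand, GRCm38), changed least of the 37 genes called. It had 8.14, 11.0 and 8.76 CPM in cKO replicates 1, 2 and 3, against 14.4, 12.7 and 12.8 CPM in control replicates 1, 2 and 3. The groups did not overlap, but cKO replicate 2 came near the lowest control. This made a log2 fold change of -0.52 ± 0.20 (adjusted p = 0.0426), and the call was lost without any 1 library other than cKO replicate 2 (adjusted p = 0.0760 to 0.156). Ndufs3 was also not called with DESeq2 (adjusted p = 0.0620), with no filter (0.0817) or with at least 10 CPM in 3 libraries (0.1502). A near-identical annotated pseudogene of its 3' end makes its level uncertain. Ndufa9, an accessory subunit of the dehydrogenase fold beside the ubiquinone site, changed most in the module, with 5.61, 7.12 and 5.70 CPM in cKO against 20.6, 13.4 and 14.99 CPM in control (-1.41 ± 0.22; adjusted p = 9.71e-05). Ndufa5 had the highest level of the module, with 21.6, 27.1 and 21.3 CPM in cKO against 51.3, 41.9 and 47.6 CPM in control (-1.01 ± 0.16; adjusted p = 1.48e-04). The iron-sulfur subunits Ndufs7 and Ndufs8 had log2 fold changes of -1.01 ± 0.19 and -1.16 ± 0.18 (adjusted p = 6.62e-04 and 1.15e-04).

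The proximal part of the membrane arm had 9 of 9 genes called lower, with a median of -1.13. Ndufa1, a small X-linked single-pass subunit (chromosome X, 37187588 to 37191163, minus strand, GRCm38), changed most of all members. It had 16.1, 31.1 and 18.8 CPM in cKO replicates 1, 2 and 3, against 133, 119 and 105 CPM in control replicates 1, 2 and 3. The highest cKO level was far under the lowest control level. This made a log2 fold change of -2.44 ± 0.23 (SE; edgeR adjusted p = 2.54e-06), and -2.76 without cKO replicate 2. Its raw counts were nearly equal between the groups, 953, 1031 and 1125 in cKO and 1002, 1011 and 824 in control, and as a percent of the library it was 1.64-fold higher in cKO. Ndufa3, a small accessory subunit beside ND1, changed least in this part of the arm, with 26.3, 28.6 and 28.1 CPM in cKO against 51.8, 53.5 and 42.2 CPM in control (-0.83 ± 0.15; adjusted p = 4.92e-04). The 3' end of Ndufa3 overlaps that of Tfpt on the opposite strand. Ndufa13, also known as GRIM-19, fell by 1.55 ± 0.21 and Ndufc1 by 1.47 ± 0.15 on the log2 scale (adjusted p = 3.22e-05 and 3.06e-06). The other 5 genes, Ndufa8, Ndufa10, Ndufa11, Ndufc2 and Ndufs5, had fold changes between -1.17 and -0.84.

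The distal part of the membrane arm, made of the Ndufb subunits around ND4 and ND5, had 10 of 10 genes called lower and a median of -1.45, the lowest of the 4 modules. Ndufb9, the other accessory LYR-motif protein of the complex (chromosome 15, 58933756 to 58939488, plus strand, GRCm38), had 23.8, 44.0 and 29.0 CPM in cKO replicates 1, 2 and 3, against 148, 135 and 152 CPM in control replicates 1, 2 and 3. All cKO libraries lay far below all control libraries. This made a log2 fold change of -2.17 ± 0.21 (adjusted p = 2.10e-06), and -2.44 without cKO replicate 2. Ndufb10, a cysteine-rich subunit on the intermembrane side, changed least here, with 19.2, 26.8 and 19.3 CPM in cKO against 39.6, 34.2 and 41.0 CPM in control (-0.82 ± 0.17; adjusted p = 0.00141). Ndufb8, an accessory subunit widely used as a marker of assembled complex I, had 34.6, 35.9 and 33.6 CPM in cKO against 113, 108 and 97.9 CPM in control. The cKO libraries differed by little, cKO replicate 2 included, and Ndufb8 had the lowest adjusted p of the members (-1.62 ± 0.15; adjusted p = 1.48e-06). The X-linked Ndufb11 had a log2 fold change of -1.498 ± 0.20 and Ndufb5 of -1.57 ± 0.19 (adjusted p = 2.93e-05 and 1.27e-05). Ndufb3, Ndufb6 and Ndufb7 had fold changes between -1.20 and -0.89.

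Ndufab1, the mitochondrial acyl carrier protein that binds both LYR-motif subunits and also serves fatty acid and lipoate synthesis, was counted low. It had 124, 71 and 100 counts in cKO replicates 1, 2 and 3, or 2.09, 2.14 and 1.67 CPM, against 25, 49 and 26 counts in control, or 3.32, 5.77 and 3.302 CPM. Its log2 fold change was -1.08 ± 0.35 (adjusted p = 0.0213). The call was lost without control replicate 2 (-0.75; adjusted p = 0.134) or cKO replicate 3 (adjusted p = 0.0969). The complex IV subunit gene Ndufa4 had 8.35, 13.5 and 10.8 CPM in cKO against 21.7, 27.7 and 20.8 CPM in control (-1.11 ± 0.21; adjusted p = 4.94e-04). Its paralog Ndufa4l2, known as a hypoxia-induced gene, was the only member that did not pass the test, at -0.86 ± 0.39 (adjusted p = 0.0833). It had 119, 44 and 86 counts in cKO against 26, 21 and 22 in control, or 2.004, 1.33 and 1.43 CPM against 3.46, 2.47 and 2.79 CPM. The 3' end of Ndufa4l2 overlaps that of Shmt2 on the opposite strand.

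**Figure D3:**
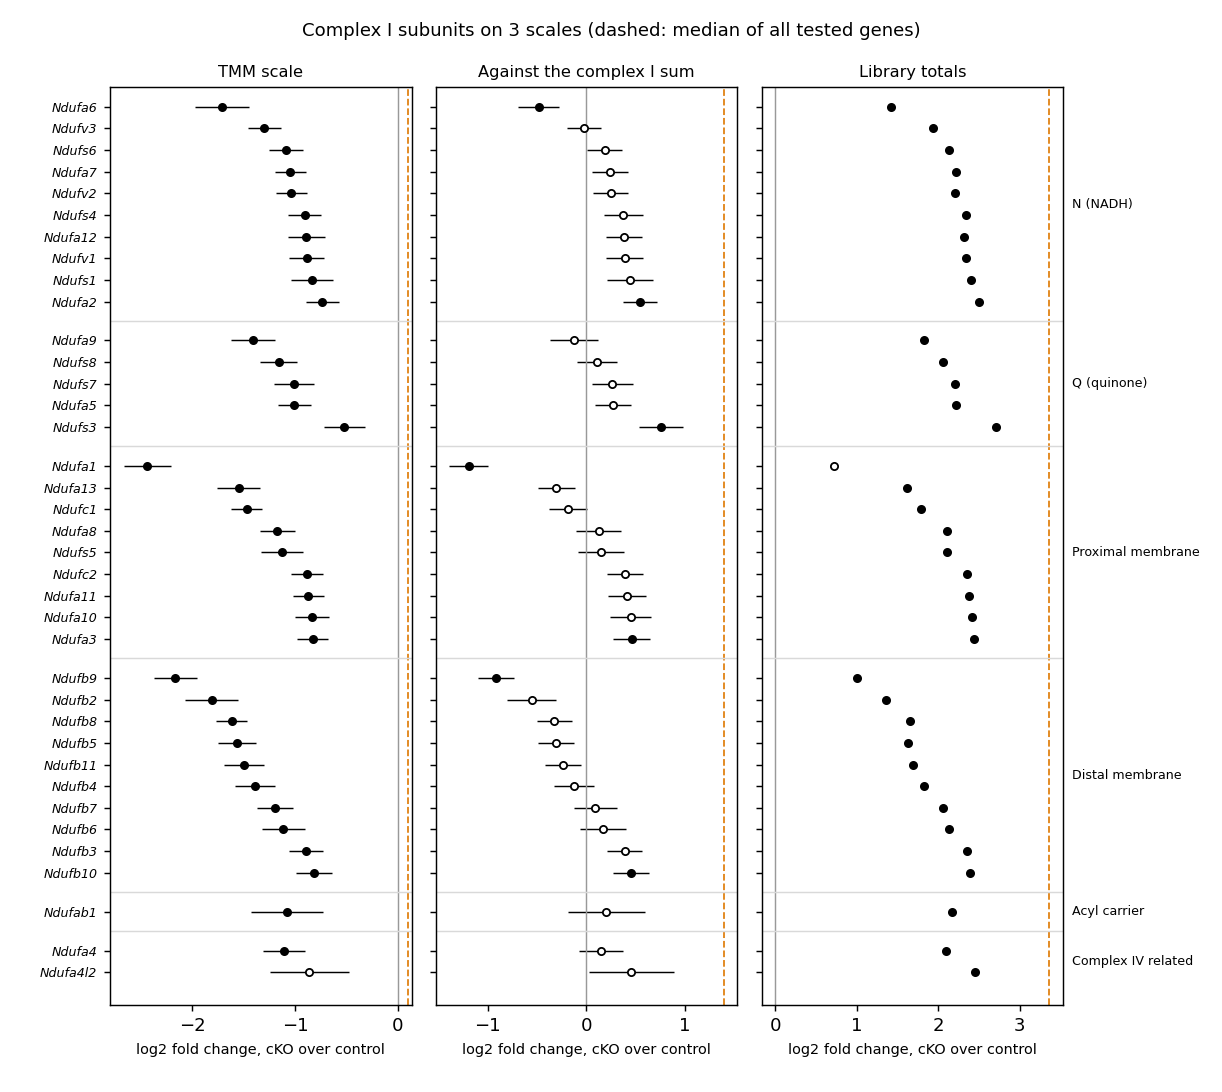
Log2 fold changes of cKO over control for subunit genes, by module, on the TMM scale (left), against the summed complex I counts (middle) and on library totals (right), with SE bars on the left and in the middle. Filled points passed an adjusted p of 0.05, the solid line is no change and the dashed line is the median of all tested genes. All points lie left of the dashed line in every panel, and Ndufa1 and Ndufb9 lie farthest left in each.

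Ratios between subunits within a library do not depend on how the library is scaled. When each library was scaled to its summed complex I counts, 3 members were lower in cKO and 4 higher relative to that sum, in an edgeR fit where 4.05% of all tested genes were called lower and 69.4% higher. The sum weights members by their counts and includes Ndufa4 and Ndufa4l2. The median member stood at 0.19 on this scale, so a value above 0 is not a value above the typical member. Ndufa1 had a log2 fold change of -1.19 ± 0.19 on this scale (adjusted p = 6.57e-05), Ndufb9 of -0.92 ± 0.18 (adjusted p = 3.77e-04) and Ndufs3 of 0.75 ± 0.22 (adjusted p = 0.00692). These 3 calls were kept without any 1 library. Ndufa2 (0.55 ± 0.17; adjusted p = 0.00987) lost its call in 1 of the 6 omissions. Ndufa6 (-0.48 ± 0.21; adjusted p = 0.0485), Ndufa3 (0.46 ± 0.19; adjusted p = 0.0398) and Ndufb10 (0.45 ± 0.18; adjusted p = 0.0374) lost theirs in 5 of 6 each. Because most genes pass on this scale, the adjustment is mild, and the unadjusted p was 0.0355, 0.0285 and 0.0265 for these 3. Without cKO replicate 2 there were 6 lower and 10 higher, where 4.59% of tested genes were called lower and 70.4% higher.

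The shares of complex I counts show these ratios in the libraries. Ndufa1 took 2.32%, 3.33% and 2.53% of the complex I counts in cKO replicates 1, 2 and 3, against 6.65%, 6.48% and 5.59% in control replicates 1, 2 and 3. Ndufb9 took 4.02% ± 0.647 in cKO and 7.61% ± 0.429 in control, and Ndufs3 took 1.18% ± 0.00377 in cKO and 0.698% ± 0.0166 in control (SD, n = 3 each). With 364 to 525 counts of Ndufs3 per cKO library and 101 to 108 per control library, counting error alone exceeds these SDs of Ndufs3. They are no measure of precision. Of the modules, the distal membrane arm held 24.9%, 26.3% and 26.3% of complex I counts in cKO replicates 1, 2 and 3, against 31.0%, 29.4% and 30.5% in control. The N module held 38.3% ± 0.358 in cKO and 34.4% ± 0.398 in control, and the Q module 9.71% ± 0.0479 in cKO and 8.11% ± 0.369 in control (SD, n = 3 each). The cKO SD of the Q module is likewise smaller than its counting error. For these 3 modules the groups did not overlap, but in both the distal and the N module a single gene carried much of the difference. With Ndufb9 left out of the distal module, the rest of it held 21.5%, 21.6% and 22.4% of complex I counts in cKO, against 23.6%, 22.1% and 22.4% in control, and the groups overlapped. With Ndufa2 left out of the N module, the rest held 27.9%, 29.8% and 29.0% in cKO, against 28.3%, 28.1% and 27.5% in control, which also overlapped. When the gene was taken out of the complex I sum as well, neither module overlapped, with 22.2% to 23.3% in cKO and 23.9% to 25.5% in control for the distal module, and 31.0% to 32.7% in cKO and 29.6% to 30.3% in control for the N module. Leaving Ndufa6 instead out of the N module, but not out of the sum, widened the difference. The rest then held 31.2% to 34.0% in cKO and 25.7% to 26.7% in control. The proximal membrane arm overlapped, with 24.4% ± 1.09 in cKO and 25.6% ± 1.28 in control (SD, n = 3 each). No test was made of these sums, whose members were chosen as a list.

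**Figure D4:**
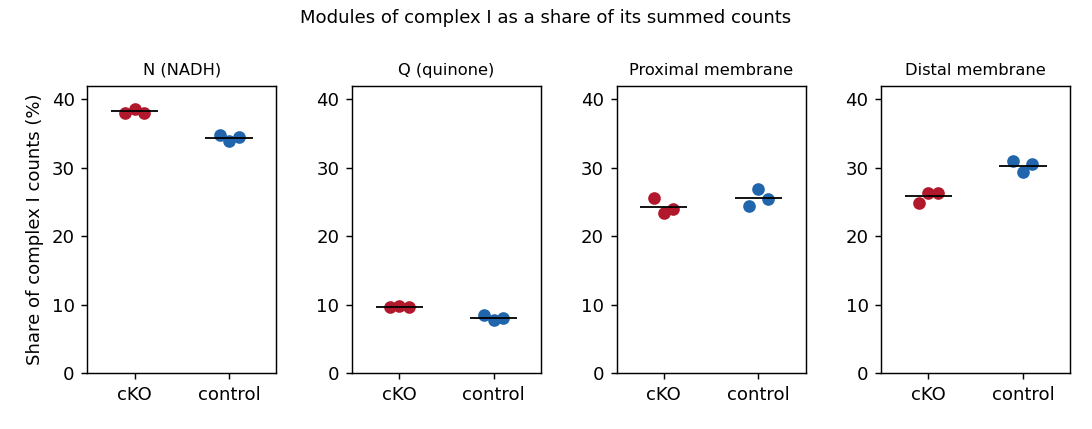
Share of the summed complex I counts taken by each of the 4 modules, in percent, with each library as a point (cKO red, control blue) and the group mean as a line. The distal membrane module is lower in all cKO libraries (24.9% to 26.3%) than in all control libraries (29.4% to 31.0%), and the N and Q modules are higher. Without Ndufb9 in the module the distal share of complex I counts overlaps between the groups, as does the N share without Ndufa2. With that gene also taken out of the complex I sum, neither share overlaps.

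Annotated neighbours and copies of the members were listed, because no source used here gives the strand setting or the treatment of reads with several matches. Whether reads of a member and of such a partner were told apart is therefore not known. The last 200 bases of 5 members overlap an exon on the opposite strand in GENCODE M21: Ndufa2 (Tmco6), Ndufa3 (Tfpt), Ndufa4l2 (Shmt2), Ndufb2 (Braf) and Ndufb6 (Smim27). The last 200 bases of 2 members, Ndufb11 and Ndufs3, match an annotated pseudogene at 95% identity or more over at least 100 bases. The median log2 fold change was -0.86 for the 5 members with an overlap, -1.01 for the 2 with a pseudogene and -1.09 for the remaining 31. Across the 38 genes the log2 fold change had a Spearman rho of -0.26 with the mean level, close to the -0.27 across all 13132 tested genes. These are descriptions over genes that share the same 6 libraries, and genes are not independent replicates.

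Assembly factors build complex I but are not part of the finished enzyme. Of 21 listed assembly factors 17 had a row of that name. Of these 17, 6 were called lower and 0 higher, with a median log2 fold change of -0.86. Of all tested genes 20.7% were called lower and 24.0% higher, with a median of 0.10. Tmem126a, which encodes a mitochondrial inner membrane assembly factor, fell by 1.41 ± 0.21 on the log2 scale (adjusted p = 6.20e-05), and Ecsit, Ndufaf1, Ndufaf2, Ndufaf4 and Tmem70 were the other 5 called. Fitted on counts outside the enzymes, Rn45s and Casp9, 2 were called lower and 2 higher. On that denominator 9.94% of all tested genes were called lower and 45.4% higher. The difference between assembly factors and subunits was not tested. Tmem126a, among the factors counted most, had 360, 250 and 350 counts in cKO and 111, 175 and 128 in control, and Nubpl, the lowest, had 38, 12 and 32 in cKO and 8, 0 and 4 in control.

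The nuclear subunits of complexes II to V had 36 of 44 genes called lower and 2 higher, with a median of -1.08. Among all tested genes 20.7% were called lower and 24.0% higher, with a median of 0.10. Complex II had 3 of 4 called lower, and its smallest p was that of Sdhb, an iron-sulfur subunit (-1.44 ± 0.21; adjusted p = 6.92e-05). Complex III had 8 of 9, with the smallest p in the Rieske protein gene Uqcrfs1 (-1.70 ± 0.17; adjusted p = 2.10e-06). Complex IV had 10 of 14 called lower, with the smallest p in Cox7a2 (-1.43 ± 0.18; adjusted p = 1.54e-05). Complex V, the ATP synthase, had 15 of 17, with the smallest p in Atp5j2 (-1.33 ± 0.16; adjusted p = 1.10e-05). Larger falls with a larger p were seen in Uqcrq, Cox7b and Atp5g1, named after their values were seen, at -1.71 ± 0.20, -1.57 ± 0.20 and -2.16 ± 0.28 (adjusted p = 1.16e-05, 2.18e-05 and 8.76e-05). The 2 that rose were tissue-restricted isoforms of complex IV, named after their values were seen. The muscle isoform gene Cox6a2 had 163, 95 and 204 counts in cKO and 0, 1 and 1 in control, and the testis isoform gene Cox6b2 had 182, 72 and 183 in cKO and 4, 8 and 8 in control.

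**Figure D5:**
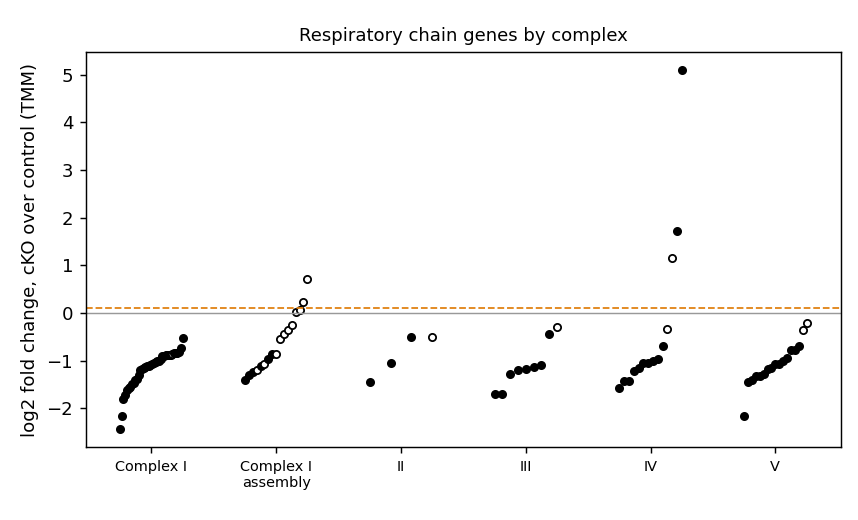
Log2 fold changes (TMM scale) of cKO over control for nuclear genes of complex I, its assembly factors and complexes II to V, each point a gene in order of its value. Filled points passed an adjusted p of 0.05, the solid line is no change and the dashed line is the median of all tested genes, 0.10. Complex I has 37 of 38 points filled, all below 0, and its assembly factors have 6 of 17. Of all tested genes 20.7% were called lower and 24.0% higher.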

How the data were processed

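Tag sequencing near the 3' end (Lexogen QuantSeq, 500 ng of total RNA, per the labels' protocols) was done in 3 cKO and 3 control libraries. The authors deposited raw counts per gene symbol, 1 table per library. The submitters' processing notes name Bowtie2, edgeR and the build mm10 (GRCm38). Counting tool, annotation and strand setting: not given in the sources used here. Symbols were cut at 12 characters, and lists were matched to the cut names. A tag is counted once per transcript, so levels were not divided by length.

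Genes were kept with filterByExpr (minimum count 10, minimum total 15), scaled with TMM and tested with edgeR 4.0.16 in R 4.3.3 (quasi-likelihood F test, Benjamini-Hochberg over all tested genes, threshold 0.05; SE is the log2 fold change divided by the square root of F). Intervals are exact Clopper-Pearson at 95% and, like the limit that a count of 0 allows (3 counts, 0.119 to 0.198 CPM of the library total), cover counting error only, since no molecular identifiers are described. No 2 libraries of a group were alike within sampling noise (chi-square per degree of freedom 14.6 to 370). Alternatives were library totals, RLE factors, counts outside digestive enzymes, Rn45s and Casp9, the complex I sum, DESeq2 1.42.0, other filters, the block, thinning and omission of each library. Positions are from GENCODE M21 (GRCm38), copies from BLAST 2.17.0. A member that counts in all totals is not reported here singly. Members, modules and lists were chosen with earlier results of these data known. Named subunits are the lowest, highest and most abundant of each module and any that did not pass; Ndufb2, Ndufb4, Ndufb5, Ndufb8, Ndufb11, Ndufs5, Ndufs7, Ndufs8, Ndufa13, Ndufc1 and the core subunits Ndufv1, Ndufv2 and Ndufs1 were added after their values were seen.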

Additional observations from a re-analysis of the deposited data

How the results depend on the processing

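Direction depended on the scale. With library totals, 0 subunits were called lower and 37 higher, 0 and 17 assembly factors, and 0 and 44 genes of complexes II to V. On these totals 0.404% of all tested genes were called lower and 96.4% higher. The medians there were 2.15 (subunits), 2.27 (N), 2.21 (Q), 2.11 (proximal), 1.76 (distal), 2.36 (assembly) and 2.15 (II to V). The named genes turned to 0.72 (Ndufa1), 2.43 (Ndufa3), 1.42 (Ndufa6), 2.50 (Ndufa2), 2.09 (Ndufa4), 2.45 (Ndufa4l2), 1.83 (Ndufa9), 2.70 (Ndufs3), 2.22 (Ndufa5), 2.16 (Ndufab1), 1.00 (Ndufb9) and 2.39 (Ndufb10). With counts outside the enzymes, Rn45s and Casp9, 9.94% of all tested genes were called lower and 45.4% higher. On that denominator 20 subunits were lower, and assembly factors had 2 lower and 2 higher. The medians in the same order were -0.47, -0.36, -0.40, -0.52, -0.83, -0.25 and -0.46, and Ndufs3 was at 0.093. The log2 ratio of summed percents was 1.95 on library totals, -0.66 outside the enzymes, Rn45s and Casp9, and -1.27 on effective sizes. Against the complex I sum, 3 subunits were lower and 4 higher, assembly factors 0 and 5, and complexes II to V 3 and 14. On that scale 4.05% of all tested genes were called lower and 69.4% higher. The medians against the sum were 0.19, 0.31, 0.27, 0.15, -0.18, 0.41 and 0.20. Ndufa3 was at 0.46, Ndufa2 0.55, Ndufa4 0.15, Ndufa4l2 0.46, Ndufs3 0.75, Ndufa5 0.27, Ndufab1 0.20 and Ndufb10 0.45. These follow from the denominators.

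With at least 10 CPM in 3 libraries fewer genes were tested, 4192, of which 1425 were called lower and 1443 higher. They held only 1 assembly factor, which was lower at a log2 fold change of -1.20. Cox6a2 and Cox6b2 were under 10 CPM in every library and so were not tested. Of the 41 genes of complexes II to V tested, 0 were higher. The medians were -0.76 (N), -0.92 (proximal) and -0.88 (II to V). Thinning gave an assembly median of -0.78 and passed Ndufa4l2 (adjusted p = 0.0487). The cause of the shifts in the medians and in Ndufa4l2 was not tested. DESeq2 and the fit with no filter each called 36 subunits lower, losing Ndufs3 (adjusted p = 0.0620 and 0.0817). Libraries of the same number did not deviate together (r = 0.00361, -0.0172 and -0.0138 over 11988 genes). The replicate block gave 36 subunits lower, losing Ndufs3 (adjusted p = 0.0696), a median of -1.07 and 4 assembly factors lower. Omitting each library in turn gave 35 to 37 subunits lower, a median of -1.14 to -1.03, 3 to 6 assembly factors lower with a median of -0.95 to -0.59, and 34 to 39 genes of complexes II to V lower. Omissions on the complex I sum, and of single genes from module shares, were added after seeing the data. The omissions on that sum gave 2 to 6 subunits lower and 1 to 10 higher, where 2.89% to 4.59% of tested genes were called lower and 59.4% to 70.4% higher. Ndufab1 and Ndufa4l2 had 21 to 49 counts in control, the lowest of the members.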
